A study of Bos grunniens with 18 samples.

Results

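Estrus was compared with the average of the stages on either side of it in the whole-blood transcriptome of the yak (Bos grunniens), to separate genes at a peak or a low in estrus from genes that moved steadily from anestrus to pregnancy. The study followed 6 cows and gave 18 libraries, 6 from anestrus (the Y-A group), 6 from estrus (the Y-E group) and 6 from pregnancy (the Y-P group), and all 18 entered the comparison. All animals were adult females of 4 to 8 years sampled as whole blood in EDTA with TRIzol LS, and no genotype or strain was given. Estrus was brought about with a progesterone pessary, PGF2α and GnRH followed by timed insemination, so the stage, the drugs given and the time of sampling cannot be told apart. Within a stage the libraries are numbered 1 to 6, and the number was used as a block. Y-E replicate 6 has no entry in the study's library tables, so the main counts are given with it (18 libraries) and without it (17 libraries).

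In the non-breeding season the ovaries of the yak do not cycle, estrus is the short phase of receptivity around ovulation when estradiol from the ripe follicle is high, and pregnancy is held by progesterone. White cells of the blood carry receptors for sex steroids and glucocorticoids, and glucocorticoids raise the number of neutrophils in circulation. In bulk blood, fewer cells of a type and less RNA per cell cannot be told apart.

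The libraries held 30247267 to 48401076 counts. Y-E replicate 6 stood apart from the other 5 Y-E libraries in its red-cell RNA: the 6 genes of the hemoglobin complex took 8.36% of its counts, against 0.0899% to 0.713% in the others, 3.10% to 16.7% in Y-A and 0.0272% to 0.376% in Y-P. Of 35 neutrophil genes listed, 20 were in the table, and their summed level ran from 7349 to 12203 CPM (counts scaled to library size by the TMM method) in Y-A, from 9304 to 16616 in Y-E and from 5440 to 8537 in Y-P, with the lowest Y-E value in replicate 6. The 20 T cell genes found of 26 summed to 2387 to 2610 CPM in Y-A, 2321 to 2774 in Y-E and 2884 to 4107 in Y-P. Of the markers of blood cells found in the table, none was at 0 in every library, and MMP8 and DMTN were at 0 in all 6 Y-P libraries.

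**Figure D1:**
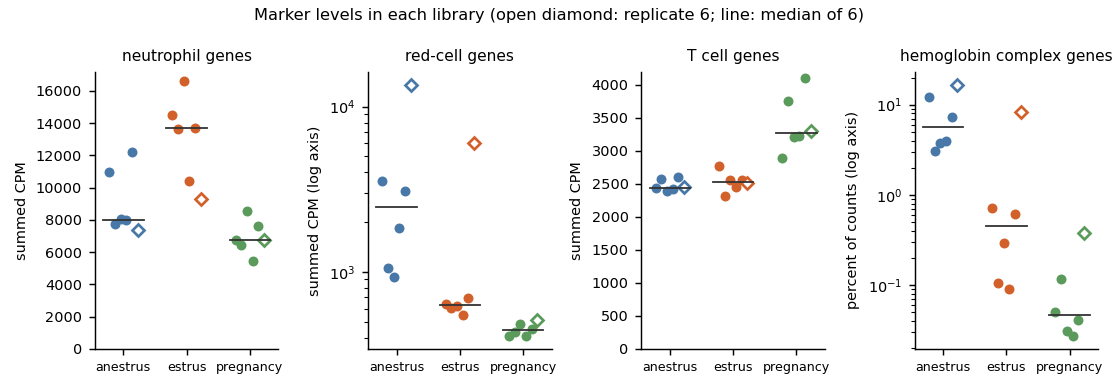
Summed level of the neutrophil, red-cell and T cell genes (TMM-scaled CPM) and the share of counts from the hemoglobin complex genes (percent), for each library by stage. Points are libraries, open diamonds are replicate 6 and lines are medians of 6. The neutrophil sum was highest in estrus (median 13694 CPM against 8013 in anestrus and 6774 in pregnancy), and the medians of both red-cell measures fell from stage to stage, with replicate 6 the highest estrus library.

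The estrus contrast was the Y-E mean minus the average of the Y-A and Y-P means on the log2 scale. Of 14508 genes tested, 653 were higher (4.5%) and 126 were lower (0.868%), together 5.37%, at an adjusted p under 0.05 (edgeR's quasi-likelihood test with the Benjamini-Hochberg method). Of these, 63 higher and 5 lower genes reached the absolute log2 fold change of 1 that the study used. Without Y-E replicate 6, 14653 genes were tested and 588 (4.01%) were higher and 74 (0.505%) lower, together 4.52%. Of the calls over 18 libraries, 547 higher and 49 lower genes were called again over 17. The median contrast over all tested genes was −0.02.

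A contrast with an average can be met by a gene that differs from 1 stage only. A gene was therefore placed at a peak or a low when it was called and lay beyond both anestrus and pregnancy, each at an unadjusted p under 0.05 in the same fit. This left 429 peak genes (2.96% of the tested genes) and 55 low genes (0.379%). Over 17 libraries the counts were 461 (3.15%) and 49 (0.334%), with 395 peak and 26 low genes in both sets. The other 224 higher and 71 lower calls all passed against pregnancy and not against anestrus.

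Pregnancy was the more distant neighbour also within the peak class. The median difference of the 429 peak genes was 0.48 from anestrus and 0.84 from pregnancy on the log2 scale, and 404 of them were lower in pregnancy than in anestrus. Against pregnancy 423 passed an adjusted p under 0.05 and against anestrus only 4 did, MYORG, CA4, ARHGAP9 and an unnamed gene. The same 2 comparisons were passed by 26 peak genes once Y-E replicate 6 was left out. Over all genes, estrus differed from anestrus in 14 genes with 18 libraries and in 54 with 17. The contrast of the peak genes ran from 0.30 to 2.74 with a median of 0.67, and 89 were under 0.5.

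**Figure D2:**
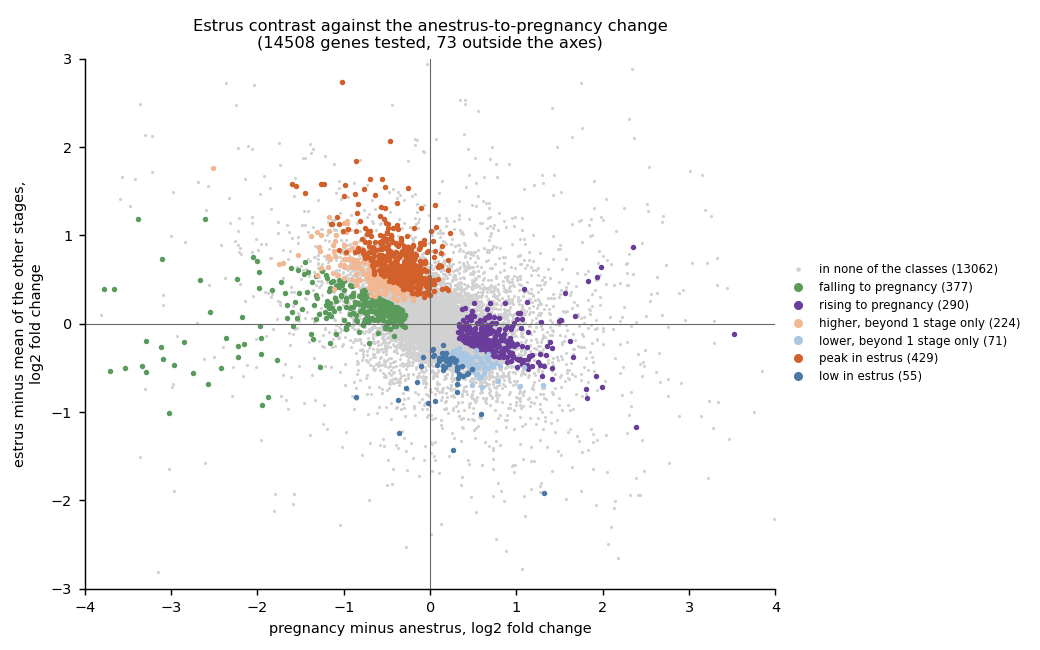
Each point is a gene, with its log2 fold change of pregnancy against anestrus on the horizontal axis and its estrus contrast (log2 fold change against the mean of the other stages) on the vertical axis, coloured by class. Of 14508 genes, 73 lie outside the axes. Peak genes (429) lie above 0 and mostly to the left, where pregnancy is below anestrus, and low genes (55) lie below 0.

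The counts of peak and low genes depended on single libraries. When Y-E replicate 2, 3 or 5 was left out, 136, 116 and 202 peak genes and 7, 5 and 8 low genes were found. Leaving out Y-A replicate 2 or 3 gave 273 and 241 peak genes. Low genes numbered 26, 18, 29 and 26 in the fits that lacked Y-A replicate 2, 3, 5 or 6 and 27 in the fit that lacked Y-P replicate 3, and they rose to 101 and 98 when the first library of Y-A or of Y-E was dropped. Of the calls in the estrus contrast, 83.8% were higher, and with limma on the deposited FPKM this share was 60.0% to 61.7%. Full separation was rare: in 9 of all tested genes (0.062%) every one of the 6 Y-E libraries was above the 12 others, 8 of them peak genes, and in 7 genes (0.0482%) every one was below, 4 of them low genes. With 5 Y-E libraries the numbers were 50 (0.345%) and 16 (0.11%).

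Among the peak genes, MYORG, a glycosidase-like gene first described in muscle differentiation, had the smallest p. It ran from 8.19 to 17.9 CPM in anestrus (median 10.0), from 19.5 to 34.7 in estrus (median 24.5) and from 4.95 to 10.3 in pregnancy (median 6.33). All 6 estrus libraries were above every other library, replicate 6 being the lowest of them. The contrast was 1.53 ± 0.16 (log2 fold change ± SE, adjusted p = 0.000719), or 2.88-fold, and 1.69 without replicate 6. The gene lies on chromosome 7 at 11340481 to 11356229 on the minus strand in the coordinates of the deposited table.

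CA4, the membrane-anchored carbonic anhydrase, ran from 18.5 to 50.9 CPM in anestrus (median 38.4), from 34.6 to 129 in estrus (median 77.6) and from 12.1 to 34.7 in pregnancy (median 24.7). In 4 of 6 estrus libraries it was above every other library, and the lowest was replicate 6. Its contrast was 1.32 ± 0.14 (adjusted p = 0.000719), and the gene lies on chromosome 19 at 57182412 to 57192556.

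Regulators of gene activity were among the leading peaks. BCL6, a transcriptional repressor known from germinal-centre B cells and also expressed in myeloid cells, ran from 251 to 473 CPM in anestrus, from 313 to 662 in estrus and from 137 to 236 in pregnancy. Replicate 6 was again the lowest estrus library, and the contrast was 1.08 ± 0.14 (adjusted p = 0.00216). RFX2, a winged-helix factor of ciliary genes, had a contrast of 1.48 ± 0.20 (adjusted p = 0.00236). A large part of it lay on the side of pregnancy, as in the other leading peaks named by their p. RFX2 ran from 2.44 to 4.91 CPM in pregnancy against 13.6 to 25.1 in estrus and 6.79 to 18.2 in anestrus. PAX8, a paired-box factor best known from thyroid and kidney, ran from 17.5 to 31.8 CPM in estrus, 10.8 to 17.7 in anestrus and 7.36 to 13.6 in pregnancy, and 5 of 6 estrus libraries were above all others (contrast 1.01 ± 0.14, adjusted p = 0.00236).

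Signalling and metabolic genes were among the other leading peaks. GAB2, an adaptor that links cytokine and growth factor receptors to PI3-kinase, ran from 214 to 456 CPM in estrus, 206 to 284 in anestrus and 94.6 to 143 in pregnancy (contrast 1.05 ± 0.14, adjusted p = 0.00236). UPP1, the uridine phosphorylase, had a contrast of 1.08 ± 0.14, and its replicate 6 value of 87.2 CPM fell inside the anestrus range of 68.1 to 175 while the other 5 ran from 163 to 332. SLC2A9, a urate transporter, ran from 57.7 to 116 CPM in estrus against 37.5 to 62.6 in anestrus and 28.6 to 44.8 in pregnancy, with 5 of 6 libraries above all others. The small GTPase RAB20 (contrast 1.13), the ubiquitin-domain gene UBTD1 (1.01), TMEM229B (0.75) and SNN (0.65) complete the 12 peak genes named by the smallest p. All 12 kept their call in each of the 18 fits that left out 1 library. The choice of the 12 had fixed their class without Y-E replicate 6 and their direction in all these fits.

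Of the 9 genes with full separation, those with a symbol beside MYORG were TMEM184B (contrast 0.93), PLEKHG3 (0.73), RASSF2 (0.47), ZMYND8 (0.46) and KDM6B (1.05), named here after their values were seen. RASSF2, a Ras-association domain gene, had the narrowest estrus range, 184 to 190 CPM against 130 to 172 in anestrus and 90.3 to 158 in pregnancy. KDM6B, a demethylase of the repressive trimethyl mark on histone H3, ran from 418.5 to 810 CPM in estrus, just above the highest anestrus library at 418, and from 161 to 296 in pregnancy.

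**Figure D3:**
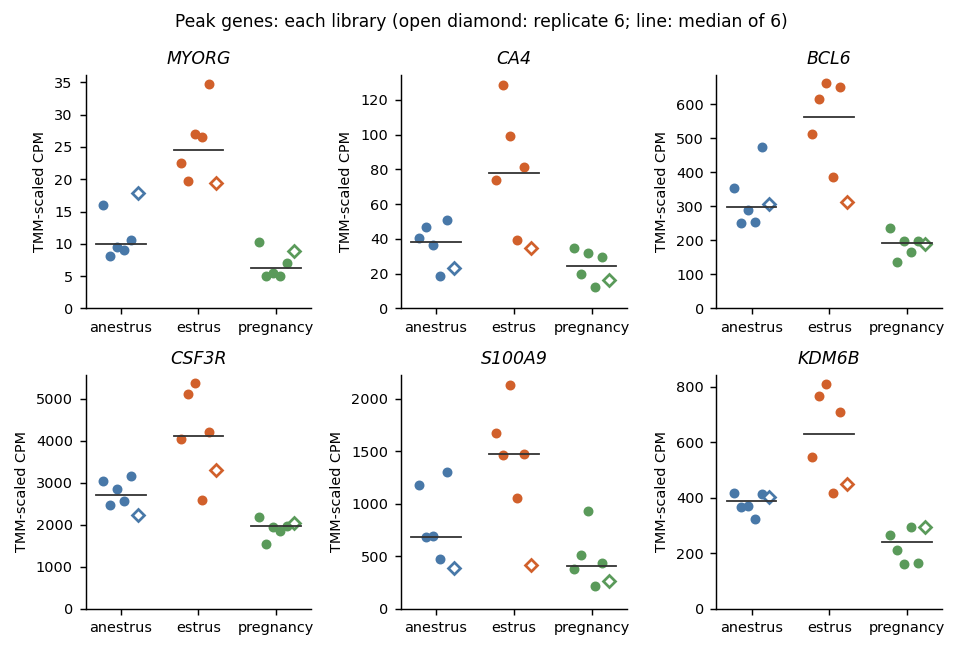
TMM-scaled CPM (linear axis from 0) of 6 peak genes in each library by stage. Points are libraries, open diamonds are replicate 6 and lines are medians of 6. In MYORG and KDM6B all 6 estrus libraries lie above the others, and in S100A9 the estrus replicate 6 (417 CPM) lies among the anestrus libraries.

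The 33 gene lists differed in how many members were called, and the neutrophil list had the highest share. Neutrophils are short-lived phagocytes that leave the bone marrow under G-CSF and glucocorticoids. Of 19 neutrophil genes tested, 10 rose in the contrast (4.5% over all tested genes) and none fell (0.868%), and 8 were peak genes (2.96%). Their median contrast was 0.94 against −0.02 over all tested genes. Without Y-E replicate 6, 9 of 20 rose and 7 were peak genes, with a median of 1.10. Under other scalings, filters and tools 6 to 12 rose, and 4 to 10 when 1 library was left out, and in none of these fits did a member fall.

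CSF3R, the receptor of G-CSF, ran from 2594 to 5374 CPM in estrus, 2237 to 3151 in anestrus and 1545 to 2186 in pregnancy, with 5 of 6 estrus libraries above all others (contrast 0.82 ± 0.13, adjusted p = 0.00321). S100A9, a subunit of the calcium-binding protein calprotectin, ran from 1059 to 2132 CPM in 5 estrus libraries and was 417 in replicate 6, against 387 to 1298 in anestrus and 213 to 936 in pregnancy (contrast 1.16 ± 0.20, adjusted p = 0.00579). MGAM, a maltase of the neutrophil surface, was 126 to 170 CPM in 5 estrus libraries and 51.0 in replicate 6, the latter below every anestrus library. Its contrast rose from 1.19 to 1.40 when replicate 6 was left out.

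In 2 proteases of this list pregnancy lay close to anestrus, so that estrus stood above both by a similar amount. MMP25, a membrane-bound protease, ran from 315 to 567 CPM in estrus, 138 to 384 in anestrus and 128 to 270 in pregnancy, and pregnancy minus anestrus was 0.04 on the log2 scale (contrast 0.94 ± 0.18, adjusted p = 0.00932). MMP9, gelatinase B of the tertiary granules, was 145 to 305 CPM in 5 estrus libraries and 51.3 in replicate 6, against 36.2 to 108 in anestrus and 36.2 to 130 in pregnancy (contrast 1.35 ± 0.27, adjusted p = 0.0106). ALPL (contrast 1.64), PROK2 (1.37) and NCF4 (0.61) were also peak genes, while CYBB (0.37) and S100A12 (1.04) lay beyond pregnancy only. MMP9, ALPL, PROK2, NCF4, CYBB and S100A12 are named outside the rule, after their values were seen.

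The precursor-stage granule genes did not pass. ELANE, the neutrophil elastase, was 0.484 to 4.55 CPM in estrus and had a contrast of 0.24 (adjusted p = 0.777), and MPO, the myeloperoxidase, had a contrast of 0.09 (adjusted p = 0.888). S100A8, the partner of S100A9, had a contrast of 1.08 and missed the threshold (adjusted p = 0.0556).

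**Figure D4:**
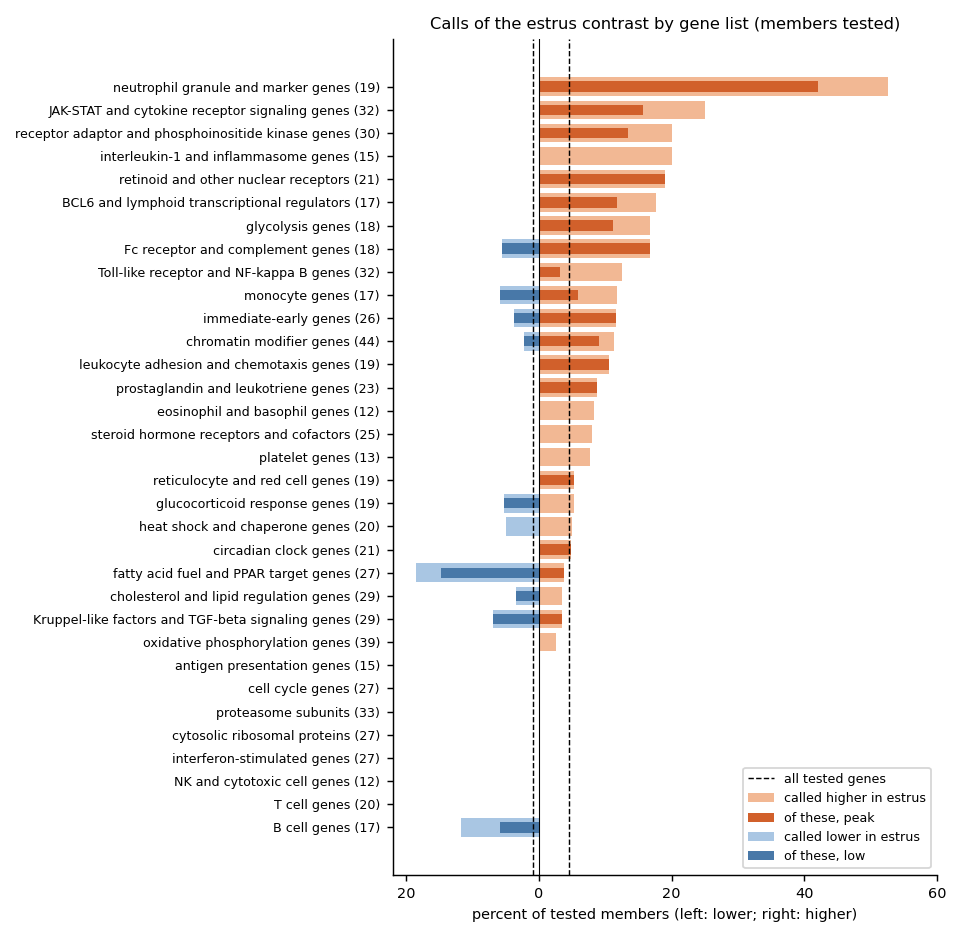
Percent of the tested members of each of 33 gene lists (members tested in brackets) called higher (right) or lower (left) in the estrus contrast, with the peak and low genes as narrow bars; dashed lines give all tested genes (4.5% higher, 0.868% lower). The neutrophil list stands at 10 of 19, the fatty acid list at 5 of 27 lower, and 7 lists have no call by edgeR over 18 libraries.

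The lists that follow hold many genes that neutrophils also express, and the neutrophil sum given above moved in the same direction. Its part in these results was not tested. List counts are edgeR's over 18 libraries where no other fit is named. Over all tested genes 4.5% were higher, 0.868% lower, 2.96% at a peak and 0.379% at a low. Of 32 genes of JAK-STAT and cytokine receptor signalling, 8 rose (6 over 17 libraries), 5 of them peak genes, and none fell. IL6R, the receptor of interleukin-6, ran from 378 to 496 CPM in estrus, 289 to 460 in anestrus and 195 to 292 in pregnancy (contrast 0.60 ± 0.11, adjusted p = 0.0079). IFNGR2, a chain of the interferon-gamma receptor, had a contrast of 0.65, CSF2RB, the common chain of the GM-CSF receptor family, 0.55, and IFNAR2, a chain of the type I interferon receptor, 0.49. SOCS3, the feedback inhibitor of these receptors, had a contrast of 0.89 ± 0.22 (adjusted p = 0.0272). The 8 calls were 12 with DESeq2, which also called 1 lower gene, and 2 with limma on the FPKM. They were 2 to 10 when 1 library was left out, with 2 each without Y-E replicate 2, 3 or 5. Of 27 interferon-stimulated genes, which these receptors control, none was called in the contrast by edgeR, and their median was −0.03. At an unadjusted p under 0.05 there were 4, and DESeq2 called 2, both higher.

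Of 30 adaptor and phosphoinositide kinase genes, 6 rose (5 over 17 libraries, 4.5% over all tested genes), 4 of them peak genes (2.96%). When 1 library was left out 1 to 6 rose, with 1 and 2 without Y-E replicates 2 and 3, and limma on the FPKM called 2. Beside GAB2 these were PIK3CG (contrast 0.56) and PIK3CD (0.61), the catalytic subunits found mainly in white cells, and FOXO3 (0.53), a transcription factor held back by that pathway. PIK3CG ran from 211 to 297 CPM in estrus, 177 to 224 in anestrus and 113 to 205 in pregnancy, with 5 of 6 estrus libraries above all others. In FOXO3 the highest library was one of anestrus, at 170 CPM, so the groups overlapped.

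Of 21 genes of retinoid and other nuclear receptors 4 rose (4.5% over all tested genes), all of them peak genes, and none fell (0.868%). The median of the list was 0.06 (−0.03 with limma on the FPKM). When 1 library was left out, 2 to 6 of them rose. RARA, the alpha receptor of retinoic acid, ran from 809 to 1508 CPM in estrus, 740 to 910 in anestrus and 455 to 647 in pregnancy (contrast 0.82 ± 0.12, adjusted p = 0.00321). RXRA, the partner with which it binds DNA, had a contrast of 0.90, RARG 0.65 and PPARD, a receptor of fatty acids, 0.40. Of 25 genes of steroid hormone receptors and cofactors edgeR called the coactivators NCOA2 (0.66) and EP300 (0.56), both higher and beyond pregnancy only. It called 3 over 17 libraries and 1 to 6 when 1 library was left out, and DESeq2 called 8, all higher. At an unadjusted p under 0.05 there were 11. The estrogen receptor gene ESR1 was 1.96 to 4.07 CPM in estrus, 2.60 to 3.63 in anestrus and 2.44 to 5.71 in pregnancy (contrast −0.37 ± 0.22, adjusted p = 0.365).

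Most of the inflammatory genes called lay beyond pregnancy only, as did every higher call outside the peak class. Over all tested genes 4.5% were higher. Of 32 Toll-like receptor and NF-kappa B genes 4 rose (3 over 17 libraries, 1 to 6 when 1 library was left out, 7 with DESeq2). MYD88, the adaptor of most of these receptors, was the peak gene among the 4 (contrast 0.77 ± 0.14, adjusted p = 0.00681). All 3 calls among 15 interleukin-1 and inflammasome genes, IL1B, IL18RAP and IL1RN, were beyond pregnancy only, and 0 to 5 were called when 1 library was left out, with 0, 0 and 1 without Y-E replicates 2, 3 and 5. IL1B, the cytokine itself, ran from 182 to 382 CPM in estrus and 175 to 476 in anestrus, which overlapped, and from 84.6 to 167 in pregnancy.

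Lipid mediators and chemotactic receptors showed peaks in a few members, against 4.5% higher and 2.96% peak genes over all tested genes. Of 23 prostaglandin and leukotriene genes 2 rose (0 to 3 when 1 library was left out, with 0 without Y-E replicate 2 or 3). They were TBXAS1, the thromboxane synthase, and ALOX5AP, which hands arachidonic acid to the leukotriene enzyme. TBXAS1 had a contrast of 0.78 and 5 of 6 estrus libraries above all others. ALOX5AP was 177 to 258 CPM in 5 estrus libraries and 87.3 in replicate 6, and its contrast went from 0.80 to 0.93 without that library. The complement receptors C5AR1 (0.46) and C5AR2 (0.55), neighbours on chromosome 20, and properdin, CFP (0.40), were peak genes as well, as was the adhesion gene ICAM3 (0.65). Of 18 Fc receptor and complement genes 3 rose and 1 fell, with a median of 0.06. With limma on the FPKM, or without Y-E replicate 2, 3 or 5, 1 of the 18 rose. Of 19 leukocyte adhesion and chemotaxis genes 2 rose, and 0 without Y-E replicate 3 or 5.

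Fuel genes were called in both directions, beside 4.5% higher and 0.868% lower over all tested genes. Of 18 glycolysis genes 3 rose (2 over 17 libraries), with SLC16A3, the lactate exporter, at 253 to 504 CPM in estrus against 164 to 270 in anestrus and 126 to 210 in pregnancy (contrast 0.88 ± 0.16, adjusted p = 0.00713), and PFKFB4, a regulator of glycolytic flux, at 0.58. UCP2, an uncoupling protein of the mitochondrial membrane, ran from 1828 to 4164 CPM in estrus, 1217 to 2143 in anestrus and 1074 to 1346 in pregnancy (contrast 0.99 ± 0.16, adjusted p = 0.00362). Of the 27 fatty acid genes it was the 1 that rose over 18 libraries, while 5 fell. Over 17 libraries 2 rose and 3 fell, the second to rise being PDK3 (0.68, adjusted p = 0.0431, named after its value was seen), and DESeq2 called 2 higher and 5 lower. When 1 library was left out 2 to 7 fell, with 2 each without Y-E replicate 2, 3 or 5.

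The 5 fatty acid genes that fell over 18 libraries were CD36, PDK4, ACAA2, HADHB and PDK1, and the median of the list was −0.18. CD36, the fatty acid uptake and scavenger receptor of monocytes and platelets, is described by its counts because they were few. Anestrus held 26 to 111 counts, estrus 0 in 4 libraries and 6 and 9 in the other two, and pregnancy 9 to 84, with 363, 15 and 208 counts in all. In 5 of 6 estrus libraries it was below every other library, and the contrast was called (adjusted p = 0.0106), but its fitted size depends on the prior count. The summed level of the monocyte genes, of which 17 of 21 were in the table, was 736 to 1470 CPM in estrus against 857 to 1415 in anestrus and 554 to 1075 in pregnancy. That of the platelet genes was 1363 to 2245 in estrus, 1607 to 1850 in anestrus and 1012 to 1703 in pregnancy. In both sums the lowest estrus library was below every anestrus library. The part of cell numbers in the CD36 values was not tested.

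ACAA2, the thiolase that ends a round of mitochondrial fatty acid oxidation, ran from 31.8 to 41.8 CPM in estrus, 42.3 to 66.0 in anestrus and 41.0 to 74.2 in pregnancy (contrast −0.47 ± 0.10, adjusted p = 0.0183). PDK4, the kinase that shuts glucose carbon out of the mitochondrion, lay at 17.4 to 31.7 CPM in estrus, 18.6 to 41.6 in pregnancy and 47.4 to 75.3 in anestrus. Estrus and pregnancy overlapped, and without replicate 6 PDK4 stayed called (contrast −0.84, adjusted p = 0.0161) but was no longer beyond both stages. HADHB and PDK1 were not called over 17 libraries (adjusted p = 0.0588 and 0.0653).

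KLF11, a zinc-finger repressor induced by TGF-beta, was the low gene with the smallest p. It ran from 33.4 to 74.6 CPM in anestrus (median 41.9), from 13.1 to 30.1 in estrus (median 17.1) and from 43.0 to 71.2 in pregnancy (median 51.9). All 6 estrus libraries were below every other library and anestrus and pregnancy overlapped. The contrast was −1.43 ± 0.15 (adjusted p = 0.000719), or 2.69-fold lower, and −1.34 without replicate 6. The gene lies on chromosome 9 at 113729036 to 113739430 on the minus strand. Its relative KLF10 fell by 0.37 (adjusted p = 0.0415) and lost its call without replicate 6, and of 29 Kruppel-like factor and TGF-beta genes SKI (0.84), a repressor of SMAD signalling, was the 1 that rose over 18 libraries. Over 17 libraries TGFB1 was called as well (0.54, adjusted p = 0.0379, named after its value was seen). In this list 3 rose without the replicate block, 5 with DESeq2 and 0 to 3 when 1 library was left out, with 0 without Y-E replicate 3 or 5.

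FCGRT, the heavy chain of the neonatal Fc receptor that keeps IgG and albumin in circulation, ran from 57.8 to 76.1 CPM in estrus, 114 to 162 in anestrus and 74.2 to 152 in pregnancy. In estrus 5 of 6 libraries were below all others, and the contrast was −0.86 ± 0.11 (adjusted p = 0.00236). The gene overlaps RCN3 on the same strand, so reads of the overlap could belong to either.

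The other low genes named by their p changed less, from −0.36 to −0.56 on the log2 scale. TRNAU1AP, which takes part in the insertion of selenocysteine, had every estrus library (16.8 to 21.4 CPM) below the lowest of the others (21.8). GNL3, a nucleolar GTP-binding protein, and LAS1L, a factor of ribosome assembly, had contrasts of −0.49 and −0.52. LAS1L ran from 91.0 to 138 CPM in estrus, 111 to 160 in anestrus and 169 to 237 in pregnancy, so that it overlapped anestrus and was set apart mainly from pregnancy. TAF9, a subunit of the general factor TFIID, fell by 0.56, and ASH2L, a core subunit of histone methyltransferase complexes, by 0.36. ZNF304 (−0.52), CWF19L1 (−0.45) and ABHD4 (−0.38) complete the 12. GNL3 and CWF19L1 host small nucleolar RNAs on the same strand and TAF9 overlaps AMBRA1, so their counts may hold reads of both. Of the 12, CD36, FCGRT, KLF11 and ZNF304 kept their call in all 18 fits without 1 library, while the others kept it in 15 to 17. As for the peak genes, the choice had fixed the class without Y-E replicate 6 and the direction in all fits.

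EXOSC10, a catalytic subunit of the RNA exosome, was also fully separated (74.8 to 91.7 CPM in estrus, 92.4 to 99.3 in anestrus, 93.9 to 122 in pregnancy), but its contrast of −0.33 was called only with replicate 6 (adjusted p = 0.0231 and 0.0638). The gene ENSBGRG00000008216, which has no symbol in the tables used, was 16.6 to 22.8 CPM in estrus, 32.5 to 46.1 in anestrus and 31.7 to 40.7 in pregnancy, with no overlap (contrast −0.89 ± 0.10, adjusted p = 0.00074). EIF3H, a translation initiation factor, was separated as well and was not called (contrast −0.38, adjusted p = 0.0593). Of 27 cytosolic ribosomal proteins, 33 proteasome subunits and 27 cell cycle genes, edgeR called none, with medians of −0.16, −0.16 and 0.03. At an unadjusted p under 0.05 there were 3, 5 and 2, and DESeq2 called 0, 1 and 1, both lower. Of 12 genes of natural killer and cytotoxic cells and 15 of antigen presentation neither tool called any, with 1 in each list at an unadjusted p under 0.05.

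**Figure D5:**
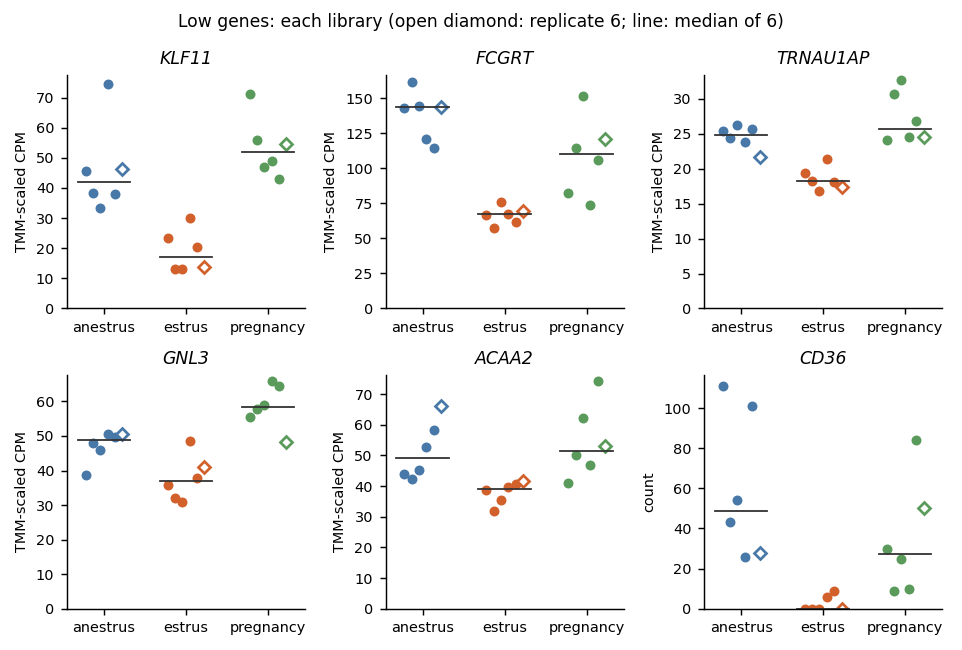
Low genes in each library by stage, as TMM-scaled CPM (CD36 as counts) on linear axes from 0. Points are libraries, open diamonds are replicate 6 and lines are medians of 6. All 6 estrus libraries of KLF11 and TRNAU1AP lie below the others, and CD36 has 0 counts in 4 estrus libraries.

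Chromatin modifiers were called more often higher than lower, as were all tested genes (4.5% higher and 0.868% lower). Of 44 such genes 5 rose and 1 fell, and over 17 libraries 6 rose and 0 fell. DESeq2 called 11 higher and limma on the FPKM 1, and 1 to 7 rose when 1 library was left out, with 1 each without Y-E replicate 2, 3 or 5. KDM6B led, and HDAC5 (0.47), the acetyltransferase KAT6A (0.55) and the demethylase KDM4B (0.43) were peak genes, while EZH2, which writes the mark that KDM6B removes, fell by 0.40 (adjusted p = 0.0336) and lost its call without replicate 6. SPI1, the master factor of myeloid cells, ran from 486 to 1108 CPM in estrus, 339 to 610 in anestrus and 287 to 355 in pregnancy (contrast 0.95 ± 0.14, adjusted p = 0.00287). Of 26 immediate-early genes 3 were peak genes, FOSL2 (0.64), the survival factor MCL1 (0.45) and ZFP36 (0.51), which destabilises cytokine mRNAs, and KLF10, given above, was a low gene. None of these 26 genes was called by edgeR without Y-E replicate 2, 3 or 5, and DESeq2 called 6 higher and 2 lower over 18 libraries. FOS and FOSB did not follow them: FOS ran from 34.0 to 55.9 CPM in estrus and 31.9 to 71.4 in anestrus, and from 56.5 to 1076 in pregnancy. Among 21 circadian genes edgeR called the clock output factor NFIL3 (0.67) and DESeq2 called 2. The edgeR call was lost without Y-E replicate 2 or 3.

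The steady genes formed a set of similar size. From anestrus to pregnancy 290 genes rose (2.0%) and 377 fell (2.6%) with the fitted estrus level between them and no call in the estrus contrast. Over 17 libraries these were 227 (1.55%) and 312 (2.13%), with 212 and 292 shared. No least step between stages was asked of these classes. In the rising genes estrus minus anestrus had a median of 0.15 on the log2 scale and estrus minus pregnancy −0.49. In the falling genes the medians were −0.17 and 0.56, so the larger median step lay between estrus and pregnancy. Of 20 T cell genes 8 were in the rising class, among them ZAP70, TCF7, CD3D and CD4. The number was 5 over 17 libraries and 2 to 8 when 1 library was left out. None of the 20 was called in the estrus contrast by edgeR. At an unadjusted p under 0.05 there were 5, and DESeq2 called 2, both lower. In the rising genes named, estrus minus anestrus was 0.01 to 0.12 on the log2 scale and estrus minus pregnancy −0.47 to −0.32. In TCF7, a factor of naive T cells, estrus ran from 160 to 233 CPM and anestrus from 149 to 232, against 205 to 332 in pregnancy, and pregnancy minus anestrus was 0.57 on the log2 scale (adjusted p = 0.0245). For 4 of the 6 rising genes named by their p, DEPDC7, CEP68, ADAMTS10 and WDR6, pregnancy did not overlap estrus and the estrus range lay within or near that of anestrus. CEP68, a centrosomal linker protein, was 59.3 to 71.3 CPM in estrus, 56.5 to 67.7 in anestrus and 84.2 to 100 in pregnancy. In the other two the ranges overlapped: MTHFSD was 2.23 to 3.96 CPM in estrus and 3.41 to 6.03 in pregnancy, and the cadherin gene CDH3 was 2.04 to 4.32 in estrus and 4.13 to 9.07 in pregnancy.

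Most red-cell genes fell steadily, 12 of 19 tested (12 over 17 libraries too), among the 377 genes of that class. In the estrus contrast edgeR called 1 of them, and not without Y-E replicate 2 or 3. It was SLC25A37, mitoferrin, an iron carrier also used outside red cells, at 166 to 233 CPM in estrus, 127 to 207 in anestrus and 95.5 to 139 in pregnancy (contrast 0.54 ± 0.11, adjusted p = 0.0133). ALAS2, the first enzyme of heme synthesis in red cells, was 382 to 9946 CPM in anestrus, 89.6 to 159 in 5 estrus libraries, 4261 in estrus replicate 6 and 37.6 to 117 in pregnancy. ARG1, the arginase of the urea cycle, was 29.1 to 486 CPM in anestrus, 3.34 to 23.3 in 5 estrus libraries, 208 in replicate 6 and 0.497 to 10.0 in pregnancy. The number 6 library was the highest of its stage in all 3 stages for ARG1. HBM, a globin, and RHAG, KLF1, DDO and MARCHF2 had the same order of fitted stage levels, and in each of them estrus replicate 6 was inside the anestrus range.

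Of 13 platelet genes 6 were in the falling class, against 2.6% of all tested genes. TUBB1, the beta-tubulin of platelets, rose in the contrast (0.64, adjusted p = 0.0153) beyond pregnancy only. Among the 17 B cell genes FCRL1, an Fc receptor-like protein of B cells, fell in the contrast over 18 libraries and was not called over 17 (adjusted p = 0.0615). Of 12 genes of NK and cytotoxic cells none was called over 18 libraries, and their median was −0.27.

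The remaining lists are given by the members called, beside 5.37% called in either direction over all tested genes. Of 19 glucocorticoid response genes, PDK4 fell and CRISPLD2 rose (0.53, beyond pregnancy only), and FKBP5, a feedback gene of the receptor, had a contrast of −0.56 (adjusted p = 0.359). Among the 29 cholesterol and lipid genes, ABCA1, the cholesterol exporter, fell by 0.66 and was called over 18 libraries only. Of 20 heat shock and chaperone genes CRYAB, a small heat shock protein, rose (1.05) and CCT2, a chaperonin subunit, fell by 0.41. Of 12 eosinophil and basophil genes ADGRE1 rose (0.83), and of 17 monocyte genes CD68 (0.62) and VSIG4 (0.52) rose beside the fall of CD36. Neither CD68 nor VSIG4 was called over 17 libraries (adjusted p = 0.0656 and 0.0516). The third member of the BCL6 list to rise among 17, after BCL6 and SPI1, was BACH1 (0.61), a repressor of heme-responsive genes. Members given here outside the rule were named after their values were seen.

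Leaving out Y-E replicate 6 kept 547 of 653 higher and 49 of 126 lower calls. It added 51 genes with a symbol to the calls. Of the added genes, those with the largest absolute contrast without the replicate were CRISP3 (1.22 without it and 1.06 with it), MACROD1 (0.92 and 0.72) and TP53INP2 (0.92 and 0.69). UROD (−0.88 and −0.72), ENO3 (0.82 and 0.66) and HDAC4 (0.79 and 0.64) came next. CRISP3, a secretory protein of neutrophil granules, was 13.5 to 64.3 CPM in the 5 estrus libraries and 11.6 in replicate 6. UROD, an enzyme of heme synthesis, was 10.1 to 16.8 CPM in the 5 and 36.0 in replicate 6, with pregnancy at 13.9 to 24.5, so it was below anestrus and not beyond pregnancy.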

How the data were processed

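Whole-blood mRNA was sequenced by the authors from poly(A)-selected libraries. Reads were trimmed (Cutadapt 1.9), aligned with HISAT2 2.2.1 to Bos grunniens v101 and assembled with StringTie 2.1.6, and FPKM was computed with ballgown. The deposited table holds whole-number counts and FPKM of 20607 genes; the authors deposited the counts as raw values, and how they were made is not given in the sources used here. Fold changes and p-values were not taken from the authors.

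From the counts, edgeR 4.0.16 in R 4.3.3 was run with TMM scaling, filterByExpr by stage, stage and replicate number as factors and quasi-likelihood tests, two-sided, with Benjamini-Hochberg adjustment over all genes tested. Genes with an adjusted p below 0.05 were called. Levels are TMM-scaled CPM, not divided by length, so levels of different genes are not compared. The alternatives were DESeq2 1.42.0 (Wald test, counts) and limma 3.58.1 on log2(FPKM + 1) and log2(FPKM + 0.1) of the authors' FPKM, other scalings and filters, no replicate block, and each library left out. At the depth of these libraries 3 counts correspond to 0.0604 to 0.107 CPM. The steps were tested on simulated data. Intervals of counting were not used.

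The labels do not say that a number marks one cow in all stages. The correlation of same-numbered libraries in their deviations from the stage means ran from 0.110 to 0.515 between anestrus and estrus, from −0.0492 to 0.369 between anestrus and pregnancy and from −0.0544 to 0.400 between estrus and pregnancy, with number 6 highest in each. Where numbers do not mark animals, p-values measure the spread between libraries only.

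The genes named are the 12 peak and 12 low genes of smallest p that were in the class with and without Y-E replicate 6 and kept direction in every fit without 1 library, the 6 rising and 6 falling genes of smallest p, up to 4 peak or low genes per list, and 6 genes called only without that library. The members and the 33 lists were chosen with earlier results of these data known. No sequence is shown because none was at hand. A few single-gene values of the lists are not reported here.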

Additional observations from a re-analysis of the deposited data

Results flagged for a closer look

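Gaps between neighbouring libraries were examined in 264 groups of 6 libraries (the named genes, total counts, hemoglobin share and marker sums). In 32 groups the gap of a library to its nearest neighbour took up more of the group's range than a set limit. In 11 of these the library was Y-E replicate 6. About 1 in 20 groups of normally distributed values would pass the limit. The groups here are not independent, because several repeat the red-cell RNA of replicate 6. Some genes were also named because they were called only without that library. The number found was therefore not compared with chance.

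Y-E replicate 6 held 46404156 counts (the other 5 Y-E libraries 31704498 to 34960163), 8.36% of them from hemoglobin genes, and 6028 CPM in the summed red-cell genes. It was also apart in ARG1 (208 CPM), HBM (27.8), RHAG (17.7), KLF1 (22.5), DDO (5.23), MARCHF2 (283), UROD (36.0) and MGAM (51.0). Without it the estrus contrast changed sign in ARG1, HBM and RHAG, none of which was called. MGAM and the other peak genes named by rule were chosen as peak genes also without it, so their sign could not change.

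Number 6 stood apart in the other stages as well. Y-A replicate 6 was high in the summed red-cell genes (13601 CPM), ARG1 (486), RHAG (54.2), KLF1 (53.7) and DDO (19.1). Y-P replicate 6 was high in hemoglobin (0.376%), ARG1 (10.0 CPM), RHAG (0.385), DDO (0.605), MARCHF2 (46.6) and RARA (647).

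In anestrus, replicate 5 was high in TMEM229B (142 CPM), MGAM (97.0), PFKFB4 (135) and NFIL3 (270.5). Replicate 1 was high in MMP25 (384) and SPI1 (610.1), replicate 4 in KLF11 (74.6) and IL6R (460), and replicate 2 in TP53INP2 (2.51). In estrus, replicate 2 was high in the summed eosinophil and basophil genes (1291 CPM).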

How the results depend on the processing

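Counts are given as higher, lower, peak, low, rising and falling genes, against 653, 126, 429, 55, 290 and 377 in the fit reported. Over all alternatives, 1983 of 2181 values of named genes kept direction and side of the threshold, 143 lost their call, 30 gained one and 25 changed sign.

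With the other tool, DESeq2 gave 1115, 427, 621, 104, 590 and 542. Scaling by library size alone gave 397, 115, 334, 35, 841 and 186, and moved the median change of all genes from anestrus to pregnancy from 0.03 to 0.20 on the log2 scale. Limma on the FPKM gave 291 higher, 181 lower, 262 peak, 45 low, 1300 rising and 220 falling genes with a pseudocount of 1, and 284, 189, 253, 50, 1212 and 207 with 0.1. Without the low-count filter there were 59 lower and 30 low genes (585 higher, 421 peak, 219 rising, 299 falling). The stricter filter, the median-of-ratios scaling and leaving out hemoglobin genes kept every count within 1.5 times. The last gave 81 low genes.

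Without the replicate block the counts were 538, 103, 347, 51, 188 and 252, and without the block over 5 Y-E libraries 535, 97, 401, 60, 196 and 286. Leaving out 1 library gave 150 to 760 higher, 7 to 174 lower, 116 to 491 peak, 5 to 101 low, 84 to 326 rising and 191 to 435 falling genes. Higher calls were 178, 150 and 244 without Y-E replicates 2, 3 and 5, and 432 and 416 without Y-A replicates 2 and 3. Lower calls were 7, 7, 10 and 74 without Y-E replicates 2, 3, 5 and 6, 39, 32, 58 and 42 without Y-A replicates 2, 3, 5 and 6, and 53 without Y-P replicate 3. Rising genes were 139, 118, 84 and 117 without Y-A replicates 2, 4, 5 and 6 and 125, 118 and 149 without Y-P replicates 2, 5 and 6, where falling genes were 247, 223 and 241, and falling genes were 241, 244 and 191 without Y-A replicates 2, 4 and 5. The cause was not tested.

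All 25 changes of sign were in steady genes that were not called in the estrus contrast. MTHFSD was 0.021 without the block over 5 Y-E libraries and ran from −0.066 to 0.023 when 1 library was left out. ARG1 was −0.11 and −0.28 with limma on the FPKM, −0.96 without the block over 5 Y-E libraries and −0.28 to 0.33 when 1 library was left out, with replicate 6 of any stage giving the negative values. HBM was −0.47 with limma and a pseudocount of 1, −0.32 without the block over 5 Y-E libraries and −0.36 to 0.57 when 1 library was left out. RHAG was −0.51 with DESeq2, −0.39 and −0.014 with limma, −3.87 without the block over 5 Y-E libraries and −0.45 to 1.29 when 1 library was left out. KLF1 was 0.20 and MARCHF2 0.058 without the block. DDO was −0.37 and −0.13 with limma and −2.50 without the block over 5 Y-E libraries.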

Other observations

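Genes with a symbol that passed adjusted tests against both neighbours over 17 libraries and are not named above were RAP1GAP (contrast 1.07), CD24 (0.83), GLP1R (1.20), LIMK2 (0.99), SERINC2 (1.43), TARM1 (0.67), NECTIN2 (1.72) and MYBPH (0.94), all at a peak. These contrasts are over 17 libraries, and the genes were chosen after their values were seen. Some genes without a symbol passed as well. GLP1R, the receptor of the incretin GLP-1, was low throughout, at 2.93 to 9.48 CPM in estrus, 1.71 to 4.12 in anestrus and 1.62 to 5.32 in pregnancy. NECTIN2, an adhesion protein, was 15.4 to 51.2 CPM in estrus, 8.09 to 25.9 in anestrus and 6.80 to 19.3 in pregnancy. In both genes the lowest estrus library was replicate 6, and the lowest of the others were 4.48 and 27.5 CPM.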
